A study of Daphnia magna with 3 samples.

Results

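The records described here are genes of Daphnia magna whose names tie them to the writing, maintenance, reading or removal of DNA methylation, among them a pair (DMAP1 and NSUN4) whose products do none of these themselves. The rule that chose them uses names and positions, not expression, though the choice was made with earlier results of these data known. A gene record belonged to the set when its deposited description contained "DNA (cytosine", "DNA methyltransferase", "UHRF", "methyl-CpG" or "methylcytosine", or when it lay at one of the 3 DNMT loci. The rule found 14 of 47109 records, of which 17265 carry a description, and 12 of the 14 are reported here. All 12 were found by their description, and the 3 DNMT loci returned the same records as the description did. The data are poly(A)-selected RNA-Seq counts from whole bodies of 3 samples of wild type females of the NIES strain, a laboratory clone of this water flea. Each sample pooled 5 animals at 12 days of age, at the release of the second clutch, fed the nutrient-rich Chlorella ration, with the eggs washed from the brood chamber. There is 1 group only, so no contrast of genotype or food was possible, and the starved and DNMT3.1 mutant libraries of the study were not analysed here. The study used the 3 libraries described here as its nutrient-rich wild type. It states that they were made and sequenced elsewhere, with the same methods and culture. The triplicates are repeats of the culture, each library being a pool, and whether their spread is biological or technical cannot be told apart.

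In animals, DNA methylation means the addition of a methyl group to cytosine, mostly where it is followed by guanine. DNMT3 enzymes place new methyl groups, and DNMT1 copies the pattern onto the new strand after replication, guided by UHRF1, a ubiquitin ligase that recognises DNA methylated on one strand. Proteins with a methyl-CpG binding domain (MBD proteins) read the mark, and TET dioxygenases oxidise it as a step towards its removal. Genomes of arthropods carry little methylation, mostly within gene bodies. In D. magna there are a pair of DNMT3 orthologs: DNMT3.1 has a diverged methyltransferase domain, and DNMT3.2 keeps the methyltransferase motifs of an active enzyme but lacks the PWWP domain. The study describes DNMT3A as needing both domains to function.

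The libraries held 8843488, 8679171 and 9092389 counts in gene records in replicates 1, 2 and 3. A count of 3 corresponded to 0.354, 0.353 and 0.309 CPM, the count scaled to the library size after TMM normalisation (trimmed mean of M values). CPM compares 1 record between libraries, and the deposited TPM (the relative transcript abundance, corrected for length) compares records with each other. All 12 records had counts in all 3 libraries, and together they took 1859, 1384 and 1402 counts, or 0.0210, 0.0159 and 0.0154% of each library. Of the 12 records, 10 reached a mean count of 10 and entered the test between libraries. In 8 of the 12 the span overlapped another record, in 4 of these on the same strand. The strand setting of the counting is not given in the sources used here, so that reads from overlapping records cannot be told apart.

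The set covered a wide range of levels. Mean TPM ran from 15.6 for NSUN4 down to 0.415 for DNMT3.2. The most abundant were NSUN4, DMAP1, UHRF1-like A and MBD2-like. The 3 DNMT genes stood in the lower part, and the summed UHRF1-like records A, B and C, at 26.5 ± 8.81 TPM (SD, n = 3), stood above the summed DNMT genes at 8.18 ± 1.17 TPM in every library. Of the 11 pairs of neighbours in the order of mean TPM, 5 differed by more than 1 SD of their within-library ratio. The other 6 pairs were DMAP1 and UHRF1-like A, UHRF1-like A and MBD2-like, MBD2-like and UHRF1-like C, MBD4 and TET2, TET2 and UHRF1-like B, and UHRF1-like B and DNMT1. None of the 11 passed an exact sign-flip permutation test, with adjusted p from 0.55 to 0.75, and 3 libraries cannot give an unadjusted p below 0.25.

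**Figure D1:**
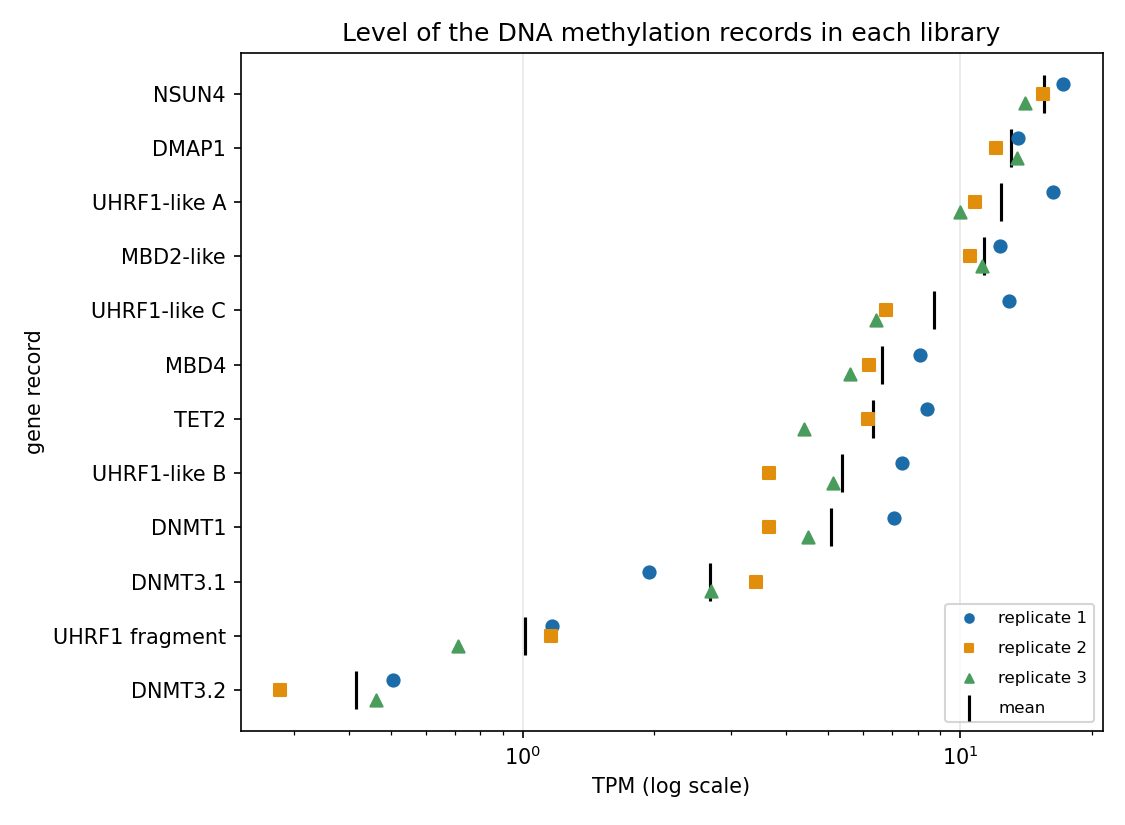
Level of the 12 DNA methylation records, with the gene record on the vertical axis in the order of mean TPM and deposited TPM on a logarithmic horizontal axis. Each symbol is 1 library and each bar the mean of the 3 libraries. Levels run from 0.278 TPM for DNMT3.2 in replicate 2 to 17.2 TPM for NSUN4 in replicate 1. DNMT3.1 is the only record whose replicate 1 is the lowest of its own 3 libraries.

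DNMT1 (Dapma7bEVm005001sc01363NoSplit, scaffold01363:317398-322560, plus strand), the maintenance methyltransferase, overlapped no other record. It had 232, 121 and 161 counts in replicates 1, 2 and 3, equal to 27.4, 14.2 and 16.6 CPM. Replicate 1 stood above the other two, which lay close to each other. Its mean was 19.4 ± 7.02 CPM and 5.08 ± 1.77 TPM (SD, n = 3), at percentile 45.9 of the TPM of the records detected in all libraries. The counts differed between libraries by more than counting noise in a chi-square test of homogeneity with Benjamini-Hochberg adjustment over 15516 records (adjusted p = 1.89e-09).

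DNMT3.1 (Dapma7bEVm006722sc02140NoSplit, scaffold02140:136605-141986, minus strand), the diverged DNMT3 gene that the study mutated, had 43, 76 and 65 counts. These equal 5.08, 8.95 and 6.70 CPM, or 1.94, 3.42 and 2.70 TPM. Replicate 1 was lowest and replicate 2 highest, the only tested record of the set with this arrangement. The difference passed the chi-square test (adjusted p = 0.0202), but not when replicate 1 (adjusted p = 0.197) or replicate 2 (adjusted p = 0.264) was left out. A pair of undescribed records on the opposite strand overlap the gene, with 0, 11 and 7 counts and with 23, 17 and 18 counts.

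DNMT3.2 (Dapma7bEVm011900sc02140NoSplit, scaffold02140:280312-283754, plus strand), the DNMT3 ortholog with all methyltransferase motifs but no PWWP domain, had only 9, 5 and 9 counts. Its level of 1.06, 0.589 and 0.928 CPM was above the level of 3 counts in each library, and the exact 95% Poisson intervals, which cover counting error only, were 0.486 to 2.02, 0.191 to 1.37 and 0.424 to 1.76 CPM. The 3 intervals overlap, so that no difference between libraries was detectable at this depth, and the record was too low for the test. At 0.415 ± 0.120 TPM (SD, n = 3) it was at percentile 6.95. The last 64 bases of its span are shared with a record for major facilitator superfamily domain-containing protein 8 on the opposite strand, which had 749, 528 and 706 counts.

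Within each library DNMT1 was above DNMT3.1 and DNMT3.1 above DNMT3.2, but by unequal amounts. The ratio of DNMT1 to DNMT3.1 in TPM was 3.62 in replicate 1, 1.07 in replicate 2 and 1.67 in replicate 3. On the log2 scale this was 0.90 ± 0.89 (SD, n = 3), about the size of its own spread. The ratio to DNMT3.2 varied less for DNMT1, at 3.57 ± 0.28 on the log2 scale (13.8-fold, 12.7-fold and 9.55-fold), than for DNMT3.1, at 2.67 ± 0.83 (3.80-fold, 11.9-fold and 5.73-fold). By an exact two-sided permutation test that flips the signs of the ratios, p was 0.25 throughout, also after adjustment over the 3 ratios, and this is the smallest p that 3 libraries allow. DNMT1 made up 74.3, 49.8 and 58.8% of the TPM of the 3 DNMT genes, DNMT3.1 20.4, 46.4 and 35.2%, and DNMT3.2 5.30, 3.78 and 6.04%. With 0.5 TPM added in place of 0.01, the ratios to DNMT3.2 fell to 2.57 for DNMT1 and 1.78 for DNMT3.1, so that the folds over this low record depend on the added value. In replicate 2, DNMT1 and DNMT3.1 were at nearly equal levels per length.

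UHRF1 directs DNMT1 to newly replicated DNA in mammals, and 4 records carried its name. UHRF1-like A (Dapma7bEVm001772sc00115NoSplit, scaffold00115:158472-161579, plus strand) overlapped no other record and had the highest level of these. It had 298, 199 and 199 counts, equal to 35.2, 23.4 and 20.5 CPM, and 12.4 ± 3.44 TPM (SD, n = 3). Replicate 1 was high and the other two were close together, a difference beyond counting noise (chi-square test, adjusted p = 8.04e-09). UHRF1-like A was above DNMT1 in all 3 libraries, by 2.31-fold, 2.95-fold and 2.22-fold in TPM, or 1.31 ± 0.22 on the log2 scale, a difference larger than its spread.

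UHRF1-like C (Dapma7bEVm001259sc02140NoSplit, scaffold02140:66689-68376, minus strand) had 124, 65 and 67 counts. Its 14.6, 7.65 and 6.91 CPM gave the largest excess of replicate 1 over the mean of the libraries in the set, 0.64 on the log2 scale (chi-square test, adjusted p = 3.11e-07), and it overlapped no other record. UHRF1-like B (Dapma7bEVm008354sc02081NoSplit, scaffold02081:2442-3920, plus strand) had 66, 33 and 50 counts, or 7.79, 3.88 and 5.15 CPM, with replicate 1 again highest (adjusted p = 0.00569). Its far end overlaps a record for the dynein assembly factor 5 on the opposite strand, which had 514, 308 and 384 counts, also highest in replicate 1. Per length, UHRF1-like C exceeded DNMT1 by 0.76 ± 0.21 on the log2 scale, whereas UHRF1-like B differed from DNMT1 by 0.08 ± 0.10, less than its spread. UHRF1-like A exceeded C by 0.55 ± 0.19 and B by 1.23 ± 0.31.

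The UHRF1 fragment (Dapma7bEVm022218sc00115NoSplit, scaffold00115:148438-148884, plus strand) is a record of 348 bases with 3, 3 and 2 counts, at or under the level of 3 counts per library. Its only deposited process term of the gene ontology is transmembrane transport, which UHRF1-like A also carries, beside maintenance of DNA methylation. Its function terms include ligase activity and transmembrane transporter activity. The record lies almost wholly inside a sodium/glucose cotransporter 4-like record on the same strand, with 244, 166 and 192 counts. Its level is therefore uncertain.

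**Figure D2:**
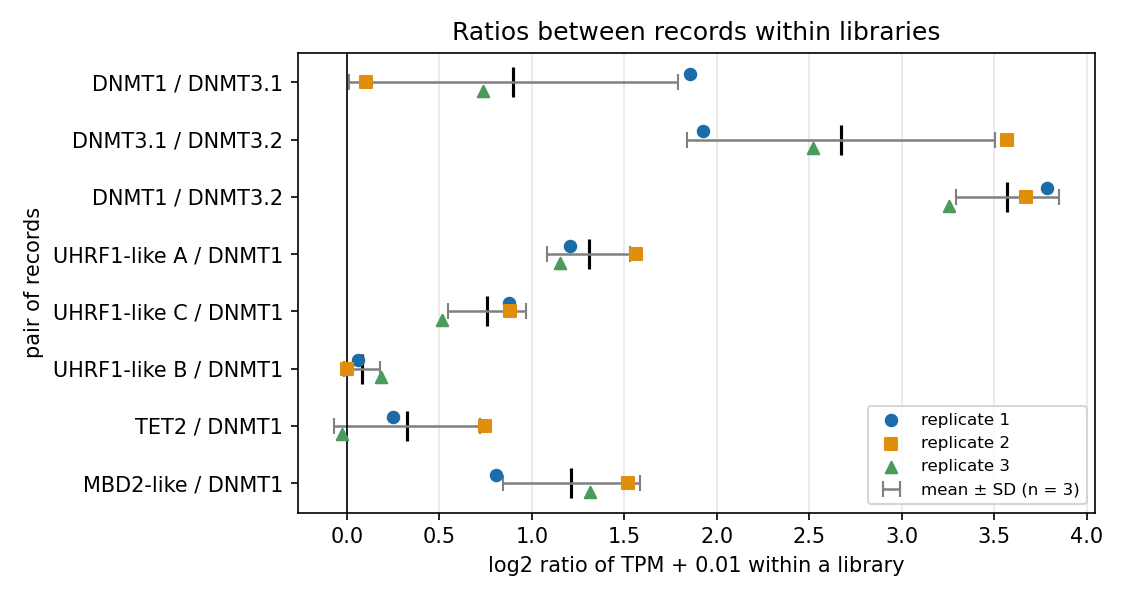
Ratios between pairs of records within a library, with the pair on the vertical axis and the log2 ratio of TPM, after adding 0.01 to each, on the horizontal axis. Symbols are the 3 libraries, and the black bar and whiskers are the mean ± SD. DNMT1 over DNMT3.1 runs from 0.10 to 1.86, while UHRF1-like B over DNMT1 stays near 0.

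TET enzymes oxidise methylated cytosine. The single TET2 record with counts (Dapma7bEVm018501sc00568NoSplit, scaffold00568:937067-952382, minus strand) is the longest of the set, with 7850 bases of transcript. It had 488, 360 and 279 counts, the most of any of the 12 records, and 57.6, 42.4 and 28.8 CPM. All 3 libraries lay apart, with replicate 1 highest and replicate 3 lowest (chi-square test, adjusted p = 4.62e-19). It is the only record of the set that still differed when replicate 1 was left out (adjusted p = 1.04e-05). Per length it was moderate, at 6.33 ± 2.00 TPM (SD, n = 3), and its log2 ratio to DNMT1 of 0.32 ± 0.39 was smaller than its spread. The span overlaps 12 other records, 5 on the same strand. One of these, on the opposite strand, is a Multidrug resistance protein 1 record whose 48.4, 33.2 and 22.2 CPM were highest and lowest in the same libraries. A second oxygenase record inside the span, described as DNA N6-methyl adenine demethylase, a name also used for the TET protein of flies, had 0 counts in all libraries.

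Among the readers, MBD2-like (Dapma7bEVm006374sc00389NoSplit, scaffold00389:229685-230963, minus strand) is named for a protein that binds methylated CpG and recruits the NuRD deacetylase complex. It overlapped no other record. Its 99, 85 and 98 counts, or 11.69, 10.01 and 10.10 CPM, did not differ beyond counting noise (adjusted p = 0.555). At 11.4 ± 0.914 TPM (SD, n = 3) it was above DNMT1 in all 3 libraries, by 1.21 ± 0.37 on the log2 scale.

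MBD4 (Dapma7bEVm006011sc03381NoSplit, scaffold03381:23468-26962, minus strand) is named for a glycosylase that repairs mismatches arising from deaminated methylcytosine. It had 82, 63 and 62 counts, or 9.68, 7.42 and 6.39 CPM, with replicate 1 highest, and did not pass the test (adjusted p = 0.0673). Its mean of 6.63 ± 1.30 TPM (SD, n = 3) differed from that of TET2 by 0.10 ± 0.22 on the log2 scale, less than the spread. The span overlaps other records on both strands, so that its level is uncertain.

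The text rule also returned a pair of records whose products are not DNA methylation enzymes or readers. DMAP1 (Dapma7bEVm002738sc03326NoSplit, scaffold03326:34710-37097, plus strand) is a partner of DNMT1 in mammals that also works in histone acetylation complexes. With 205, 184 and 223 counts, or 24.2, 21.7 and 23.0 CPM, it was the steadiest record of the set (coefficient of variation 5.56%, adjusted p = 0.618). NSUN4 (Dapma7bEVm005914sc03124NoSplit, scaffold03124:423950-426019, minus strand) methylates cytosine in mitochondrial ribosomal RNA in mammals. It had 210, 190 and 187 counts, or 24.8, 22.4 and 19.3 CPM, with no difference past the threshold (adjusted p = 0.0724). Nearly its whole span lies within an organic cation transporter record on the same strand, which had 89, 75 and 112 counts.

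The records of the set tended to be highest in replicate 1. Of the 10 tested records, 6 differed between libraries in the chi-square test with Benjamini-Hochberg adjustment, where 54.5% of all tested records did, and 8 had an unadjusted p below the threshold of 0.05, where 59.2% of all did. The 6 were TET2, DNMT1, UHRF1-like A, B and C, and DNMT3.1. Without replicate 1 only TET2 passed (1 of 10, where 29.0% of all records did). Without replicate 2, UHRF1-like B (adjusted p = 0.0519) and DNMT3.1 no longer passed, while NSUN4 (adjusted p = 0.0240) and MBD4 (adjusted p = 0.0277) did. With replicate 2 left out 45.0% of all records passed. Without replicate 3 the same 6 records passed, where 38.6% of all did. In CPM, 9 of the 10 were highest in replicate 1 (39.2% of all tested records, and 42.7% of those with a description), 1 in replicate 2 (28.9% of all) and 0 in replicate 3 (31.9% of all). The exception was DNMT3.1. In TPM the count for replicate 1 was also 9 of 10, beside 35.9% of all. The median deviation of the 10 records from their mean over the libraries was 0.38 in replicate 1, -0.08 in replicate 2 and -0.18 in replicate 3 on the scale of log2(CPM + 0.5), beside 0.01, 0.00 and 0.01 for all tested records.

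Between the highest and the lowest library, the 10 tested records differed by 1.12-fold (DMAP1) to 2.12-fold (UHRF1-like C), with TET2 at 2.00-fold and UHRF1-like B at 2.01-fold. Of the 6 records with a mean of at least 10 CPM, 0 had a library at least 2-fold from both others, where 4.19% of all such records did. At 1.5-fold there were 2 of 6 (16.9% of all), UHRF1-like A and DNMT1, and both were high in replicate 1, which holds for 5.45% of all. UHRF1-like C, at a mean of 9.73 CPM just under that limit, was 1.91-fold above its next library in replicate 1. The biological coefficient of variation, an edgeR estimate of spread beyond counting noise, had a median of 0.279 over the 10 records, from 0.192 for DMAP1 to 0.350 for UHRF1-like B and C. Over all tested records the median was 0.260 (quartiles 0.209 and 0.354).

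**Figure D3:**
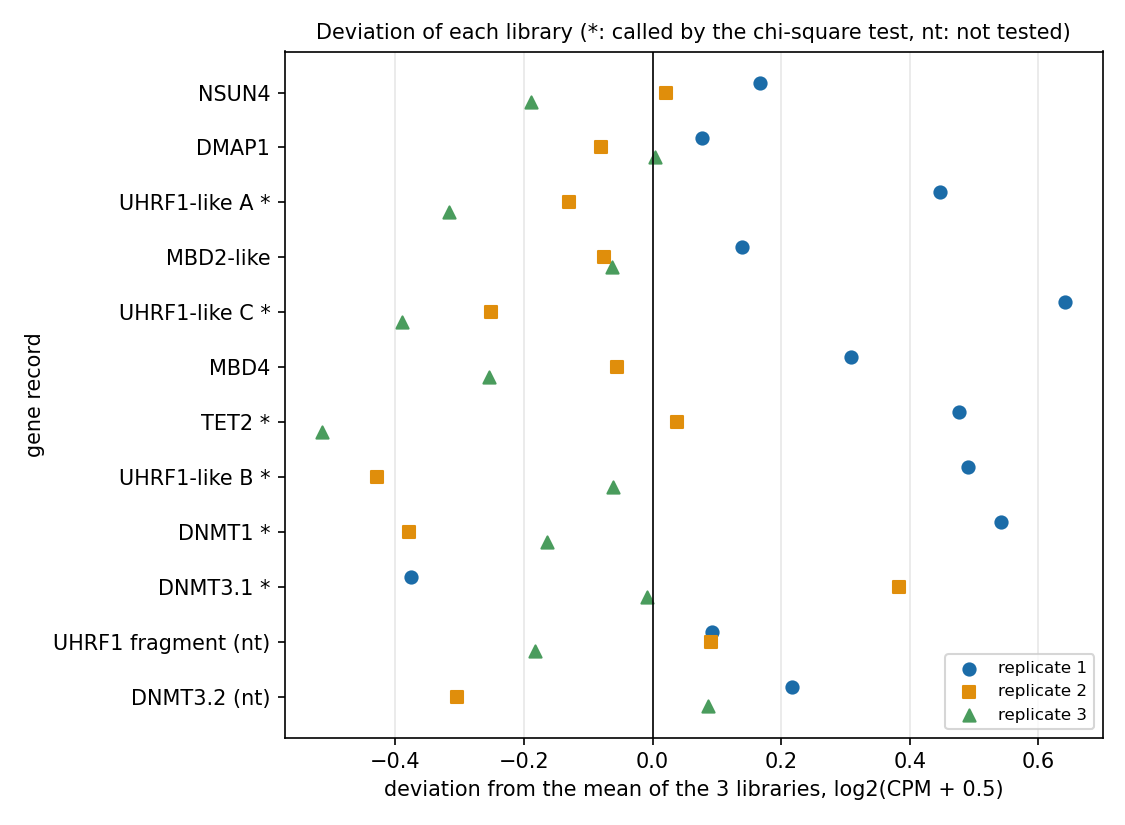
Deviation of each library from the mean of the 3 libraries for each record, with the gene record on the vertical axis in the order of mean TPM and log2(CPM + 0.5) deviations on the horizontal axis. Symbols are libraries, * marks the 6 records called by the chi-square test and nt the 2 that were too low to test. Replicate 1 lies to the right for all tested records but DNMT3.1, and reaches 0.64 for UHRF1-like C.

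A list of markers for dividing cells (cyclins A and B, aurora kinase, the MCM helicase and other replication genes) moved the same way. It held 26 records, 20 with counts and 6 at 0 in all libraries. Of its 20 tested records, 18 were highest in replicate 1 (39.2% of all tested records, and 42.7% of those with a description). Its summed level was 2288, 1431 and 1414 CPM. A germline and ovary list of 18 records, 16 with counts, had a summed level of 2089, 1491 and 1198 CPM. Of its 13 tested records, 10 were highest in replicate 1, to be read beside the same shares. In this list Nanos homolog 2 had 2, 2 and 1 counts, and Tudor and KH domain-containing protein was at 0. Divided by the summed dividing-cell markers, 2 of the 10 tested DNA methylation records, DNMT1 and UHRF1-like C, were highest in replicate 1 (3.79% of all records). Divided by the germline and ovary sum, UHRF1-like C alone was (4.49% of all records). That sum rests largely on 1 vitellogenin receptor record (Dapma7bEVm000342sc03376NoSplit), which had 1085, 679 and 442 CPM and made up 51.9, 45.5 and 36.9% of it. Without this record the germline and ovary sum was 1004, 812 and 756 CPM, and 6 of the 10 DNA methylation records (DNMT1, UHRF1-like A, B and C, TET2 and MBD4) were highest in replicate 1 relative to it (13.6% of all records). Without cyclin b, the most abundant marker of dividing cells, the count relative to that list was 2 of 10 as before (4.63% of all). Against the dividing-cell markers DNMT3.1 varied 2.82-fold, more than its 1.76-fold in CPM, and was again highest in replicate 2. The marker sum was highest in replicate 1, where DNMT3.1 was lowest. UHRF1-like A, high in replicate 1 as the sum was, varied 1.13-fold against it and 1.72-fold in CPM. In whole bodies fewer cells of a type and less RNA per cell cannot be told apart, and the part of cell composition in these values was not tested. Of the other marker lists, the cuticle-forming epidermis had median deviations of -0.38, 0.27 and 0.19 in replicates 1, 2 and 3, and the yolk-producing fat cells 0.06, 0.42 and -0.40. DNMT3.1, at -0.38, 0.38 and -0.01, was low in the library where the epidermis list was low and high where both lists were high. In replicate 3 it lay between these lists. The median deviations in replicates 1, 2 and 3 were -0.09, 0.04 and 0.05 for gut and 0.01, 0.11 and -0.17 for muscle. For neurons they were -0.08, 0.13 and 0.00, the same order of libraries as DNMT3.1 by smaller amounts. The part of any of these cells in the level of DNMT3.1 was not tested.

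The genes around DNA methylation were examined as lists of words in the descriptions, each read against the 54.5% of all records that passed the chi-square test. For every list, the count highest in replicate 1 in CPM is read against 39.2% of all tested records, and 42.7% of those with a description. S-adenosylmethionine is the methyl donor, and 11 of 14 tested records of its cycle passed. Of the 14, 8 were highest in replicate 1. S-adenosylmethionine synthase, which makes the donor, had 6375, 3616 and 4423 counts and 351 ± 112 TPM (SD, n = 3), with replicate 1 high (adjusted p = 5.62e-225). Adenosylhomocysteinase, which removes the product of the methyl transfer, was at 595 ± 73.9 TPM. It had 7216, 5769 and 7775 counts, or 852, 679 and 801 CPM, with replicate 2 lowest. Methionine synthase reductase had 223, 137 and 201 counts and was likewise lowest in replicate 2 (adjusted p = 9.25e-05).

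The partners of maintenance methylation at the replication fork did not all move alike. Of 14 tested records 10 passed, and 10 were highest in replicate 1, with a median deviation there of 0.12. Chromatin assembly factor 1 subunit A, which deposits histones behind the fork, had 405, 277 and 287 counts (adjusted p = 5.80e-10). A DNA ligase 1-like record went the other way, with 943, 1552 and 1524 counts, low in replicate 1 (adjusted p = 1.86e-31). Other DNA ligase 1 records had 538, 475 and 565 counts (chi-square test, adjusted p = 0.166) and 203, 180 and 220 counts (adjusted p = 0.557). Both were highest in replicate 1 in CPM, and neither passed. A replication factor C subunit 4 record, part of the clamp loader, had 144, 161 and 225 counts (adjusted p = 0.0205). Proliferating cell nuclear antigen, the sliding clamp, is in this list and in that of dividing cells. It had 569, 446 and 638 counts, or 67.2, 52.5 and 65.8 CPM, and was highest in replicate 1 in CPM.

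All 4 tested records of the NuRD complex, the deacetylase and remodelling complex that MBD2 recruits in mammals, passed and were highest in replicate 1, with a median deviation of 0.46. Of its 7 records, 3 had no counts. Histone deacetylase Rpd3 had 1890, 966 and 1339 counts (adjusted p = 3.59e-77), the remodeller Mi-2 1369, 989 and 839 (adjusted p = 6.22e-46), and the subunit MTA3 454, 316 and 286 (adjusted p = 1.25e-14). Each of these overlaps at least 1 other record. MBD2-like itself, as given above, did not differ beyond counting noise.

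Of a list headed demethylation and base excision repair, 5 of 10 tested records passed and 6 were highest in replicate 1. It takes in alkB homologs, whose descriptions do not name methylcytosine. Those that passed were poly [ADP-ribose] polymerase 1, XRCC1 and records for alkB homologs 4, 7 and 8. Poly [ADP-ribose] polymerase 1, a sensor of strand breaks, had 1136, 730 and 970 counts (adjusted p = 4.53e-21). XRCC1, a scaffold of break repair, had 149, 99 and 152 counts, or 17.6, 11.7 and 15.7 CPM (adjusted p = 0.0121). The dioxygenase alkB homolog 6 had 191, 233 and 242 counts, or 22.6, 27.4 and 24.9 CPM, and did not pass (adjusted p = 0.194). Of the histone methyltransferases and heterochromatin readers, 10 of 16 passed and 12 were highest in replicate 1. Chromobox protein homolog 5, a heterochromatin protein, had 434, 304 and 279 counts (adjusted p = 3.03e-13), and the histone methyltransferase NSD2 185, 104 and 119 (adjusted p = 1.43e-07). A chromobox protein homolog 1-like record had 831, 653 and 914 counts, or 98.1, 76.9 and 94.2 CPM (adjusted p = 1.91e-05).

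Of the RNA methyltransferases, a list that includes NSUN4, 13 of 21 tested records passed and 19 were highest in replicate 1. A record for a probable rRNA cytosine methyltransferase on scaffold00890 had 1022, 553 and 717 counts (adjusted p = 3.72e-38). Records of the same description on scaffold03124 had 284, 138 and 430 counts and 186, 114 and 0 counts, and each overlaps another record. A record for the tRNA methyltransferase subunit WDR4, which overlaps 6 other records, had 1077, 1104 and 1386 counts (adjusted p = 0.0171). Another WDR4 record had 169, 152 and 180 counts, was highest in replicate 1 in CPM and did not pass (chi-square test, adjusted p = 0.669). A further record, chosen after its values were seen, describes the tRNA cytosine methyltransferase that is the DNMT2 protein of other animals. It had 57, 31 and 58 counts, or 6.73, 3.65 and 5.98 CPM, lowest in replicate 2 (adjusted p = 0.0344), and lies outside the rule because its name refers to tRNA.

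**Figure D4:**
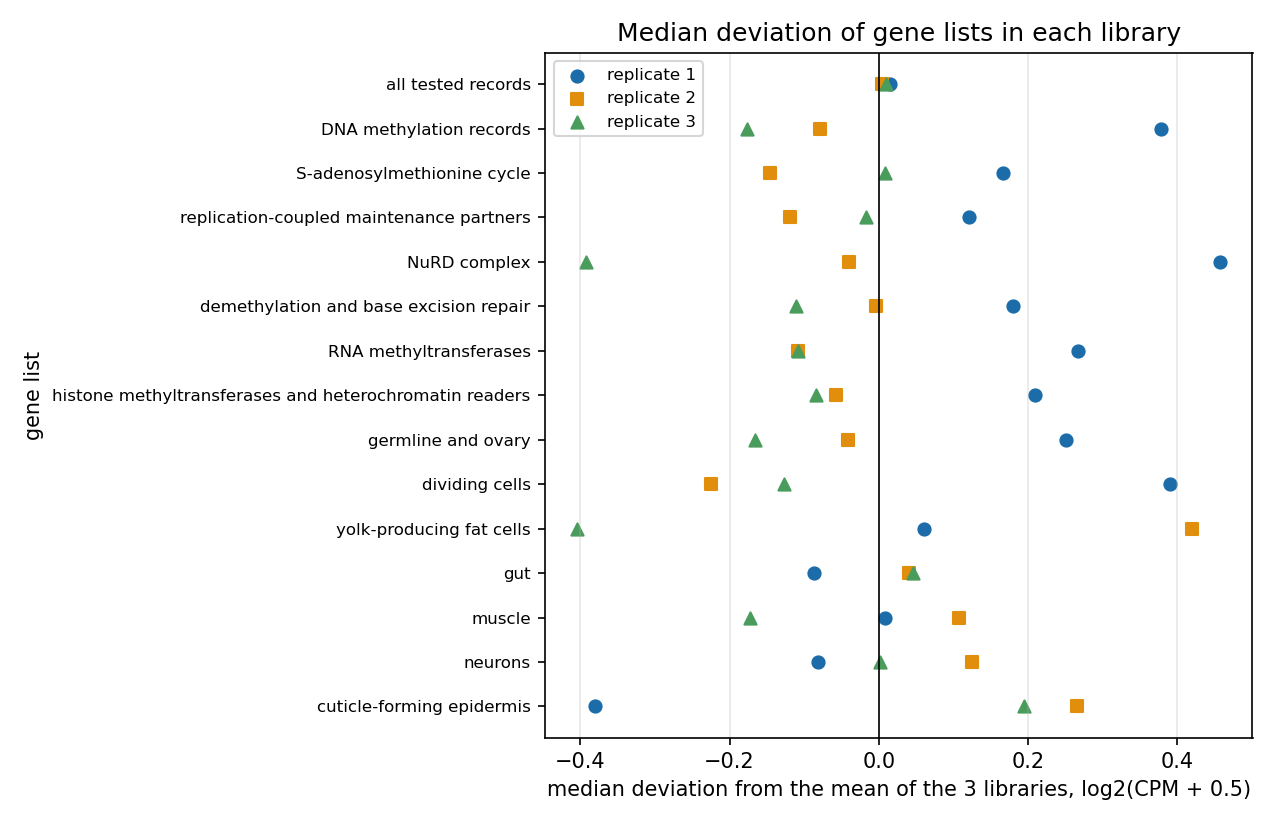
Median deviation of each library from the mean of the 3 libraries, on the scale of log2(CPM + 0.5), for the DNA methylation records, the related gene lists, the marker lists and all tested records. Symbols are libraries. Replicate 1 lies to the right for the DNA methylation records (0.38), the NuRD complex (0.46) and dividing cells (0.39), near 0 for all tested records and muscle, and to the left for cuticle-forming epidermis (-0.38).

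The DNMT1 and DNMT3.1 patterns over the libraries were each shared with other genes. By Euclidean distance between the log2 CPM deviations of the 3 libraries, the nearest described records to DNMT1 were RNA cytidine acetyltransferase (distance 0.027, with 1910, 1028 and 1374 counts), the rRNA cytosine methyltransferase record on scaffold00890, THO complex subunit 4 (2557, 1395 and 1831 counts), the putative RNA exonuclease NEF-sp (2196, 1199 and 1564 counts) and importin subunit beta-1 (166, 84 and 111 counts). The nearest to DNMT3.1 were duplex-specific nuclease (distance 0.0032, with 479, 818 and 712 counts), translocating chain-associated membrane protein 1-like 1 (1666, 2805 and 2488 counts), serine proteinase stubble (232, 395 and 352 counts), an uncharacterized protein (571, 946 and 817 counts) and cationic amino acid transporter 4 (72, 120 and 104 counts). Within a distance of 0.1 lay 62 of 6823 records for DNMT1 and 26 of 6824 for DNMT3.1. The measure rests on 3 libraries only and is a description.

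The 12 records lie on 9 scaffolds, and 3 of them share scaffold02140. UHRF1-like C lies 68228 bases before DNMT3.1 with 29 other records between them, and DNMT3.1 lies 138325 bases before DNMT3.2 with 63 between. UHRF1-like C was highest in replicate 1 and DNMT3.1 lowest there, while DNMT3.2 was too low to test. Of the 68 tested records on this scaffold, 27 were highest in replicate 1, where 39.2% of all tested records were.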

How the data were processed

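Expression was read from deposited tables of whole-body libraries of 1 group. Per the study's methods the authors mapped reads to the wFleaBase D. magna genome in CLC Genomics Workbench 12 and took descriptions from Blast2GO in OmicsBox 1.2.4. Not given in the sources used here are the versions of genome and gene models and how strand was handled. The deposited count is the total of reads per record, and per the file headers the same tables hold RPKM and TPM. The column that the authors head CPM was treated as a scaled signal, a count divided by a library size that equalled the TMM size. Records held 80.5 to 82.5% of the libraries' counts. Columns of no sample: 0.

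An intercept-only model in edgeR 4.0.16 (R 4.3.3) gave CPM with TMM scaling and the coefficient of variation. Homogeneity of counts over the 3 libraries was tested by chi-square in scipy 1.17.1 wherever the counts averaged 10 or more, with p-values adjusted by Benjamini-Hochberg and a threshold of 0.05, and the script was checked on simulated data. Deviations used log2(CPM + 0.5), and ratios between records log2(TPM + 0.01). The members and lists were chosen with earlier results of these data known. Of the 14 records found, 2 are not reported here, and the other 12 are named. Of each related list, the 2 records with the highest mean TPM and the 2 with the largest deviation of 1 library at a mean of at least 10 CPM are named, and for DNMT1 and DNMT3.1 the 5 nearest described records. Other size factors (DESeq2 1.42.0, total counts), filters, tests, scales and left-out replicates were tried as alternatives. RefSeq gene names did not match the identifiers and were not used.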

Additional observations from a re-analysis of the deposited data

How the results depend on the processing

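With each replicate left out in turn, the tested records that differed beyond counting noise numbered from 1 to 6 of 10. The 1 was TET2, without replicate 1 (29.0% of all records), so that the other 5 calls ended without that library. Among records that overlap no other, 3 of 4 differed (50.1% of all such records), and 4 of 4 were highest in replicate 1 (43.6%). The other settings for this count gave 5 of 9 (mean count of at least 50, 63.8% of all), 6 of 12 (no filter on low counts, 30.7% of all) or 6 of 10 (54.5 to 57.3% of all). Records with a library at least 2-fold apart numbered from 0 to 2 when a replicate was left out (2 of 7 without replicate 2, 5.96% of all), and 2 of 6 at 1.5-fold (16.9% of all). Alternatives chosen after seeing the data gave 9 of 10 records highest in replicate 1 with DESeq2 size factors (39.5% of all records) and with TPM (35.9% of all). With total counts there were 8 of 10 (30.8% of all). The count was 2 of 10 relative to the dividing-cell markers (3.79% of all) and 1 of 10 relative to the germline and ovary markers (4.49% of all). Without the most abundant record of each list it was still 2 of 10 for dividing cells (4.63% of all). For germline and ovary it was then 6 of 10 (13.6% of all). Without NSUN4, DMAP1 and MBD4 the count was 6 of 7 (39.1% of all). The cause was not tested. The log2 ratio of DNMT1 to DNMT3.1 ran from 0.42 to 1.30 when a replicate was left out, and was 1.47 without length correction. The ratios to DNMT3.2, 3.57 for DNMT1 and 2.67 for DNMT3.1, were 2.57 and 1.78 with a pseudocount of 0.5 TPM and 4.47 and 3.00 without length correction. The 3 DNMT ratios kept their sign. The median level of the set was 10.2 CPM, from 9.13 to 11.0 when a replicate was left out. DNMT3.2 and the UHRF1 fragment are limited by depth. No paired analysis was possible because there is 1 group.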
